A study of Mus musculus with 4 samples.

Results

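Long intergenic non-coding RNAs (lincRNAs) are long transcripts that code for no known protein and are annotated as a class apart from protein-coding genes, although 96 of those described here share exon bases with one on the opposite strand. The lincRNAs described here are the 259 well expressed ones of cultured mouse cells labelled as female germline stem cells (FGSCs), most of whose germline markers were at or near 0, as given with the markers. They were chosen by their annotated class and by a mean of at least 1 FPKM over 4 libraries, out of 53465 genes in the table. FPKM are fragments per kilobase of exon, here scaled between the libraries rather than to their fragments on genes. The table lists 5307 lincRNAs, of which 1718 were above 0 in at least 1 library. A further 10 lincRNAs of at least 1 FPKM were left out by name, because they are nuclear-retained RNAs such as *Malat1* and *Neat1*, host genes of small nucleolar RNAs (*Snhg* genes) or loci related to ribosomal RNA. The rule used the level over all 4 libraries together and not the difference between the groups.

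The cells, labelled as germ stem cells of the ovary, were cultured, infected with lentivirus and selected with a drug. The shNC group received a control shRNA and the shNAT10 group one that targets *Nat10*, and each group has 2 libraries, which the study describes as biological replicates. *Nat10* encodes the acetyltransferase that makes N4-acetylcytidine (ac4C) in RNA. The comparison asks which lincRNAs differ in level when *Nat10* is knocked down. The records differ on the preparation: the methods describe depletion of ribosomal RNA, and the sample labels describe isolation of mRNA. No source used here says whether the libraries are separate infections, so the p-values measure only the spread between these libraries.

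LincRNAs are usually spliced and polyadenylated like mRNAs, but are on average less abundant. Some are precursors of microRNAs or small nucleolar RNAs, some act on the gene beside them, and some bind proteins or RNAs in trans. For most, no function is known, and 165 of the 259 carry only a provisional symbol made of Gm and a number, 61 a symbol ending in Rik and 12 the name of a genomic clone. A lincRNA can also share a promoter with a protein-coding gene that runs the other way, or lie across the exons of a gene on the opposite strand.

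Among the annotated members, 7 contain microRNA genes, 15 in all. Their mature microRNAs are shown because they are the part of these host RNAs with a known product. The sequences are from RefSeq on GRCm38, 5′ to 3′, and capitals mark the seed, bases 2 to 8, which pairs with target mRNAs. *H19*, the member with the largest called rise, contains miR-675 on chromosome 7, minus strand, and *Mir142hg*, the host of a microRNA of blood cells, contains miR-142a on chromosome 11.
miR-675-5p: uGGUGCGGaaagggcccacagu
miR-675-3p: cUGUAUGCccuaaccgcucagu
miR-142a-5p: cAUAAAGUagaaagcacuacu
miR-142a-3p: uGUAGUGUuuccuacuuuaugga
*6720427I07Rik* contains the let-7 cluster of chromosome 13, whose 3 5p arms share the seed GAGGUAG.
let-7a-5p: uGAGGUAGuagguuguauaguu
let-7d-5p: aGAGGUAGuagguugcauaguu
let-7f-5p: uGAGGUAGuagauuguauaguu
*Mir17hg* contains the miR-17 to miR-92 cluster of chromosome 14, a growth-promoting cluster. In it miR-17-5p and miR-20a-5p share one seed, and miR-19a-3p and miR-19b-3p share another.
miR-17-5p: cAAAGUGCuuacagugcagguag
miR-20a-5p: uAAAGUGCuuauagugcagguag
miR-19a-3p: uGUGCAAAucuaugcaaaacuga
miR-19b-3p: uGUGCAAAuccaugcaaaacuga
The libraries measure long RNA, so the values of these hosts are levels of the host transcripts and not of the mature microRNAs.

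*Nat10* itself was at 7.79 and 5.42 FPKM with shNC and at 2.95 and 3.04 with shNAT10, with no overlap between the groups. The log2 fold change was -1.09 (SE 0.21, limma p = 0.00411, adjusted p = 0.123), and an exact permutation test of 2 against 2 libraries gave p = 0.333, the smallest it can give. Total fragments on genes, recovered from the FPKM, came to 14902415 and 13029012 for shNC, and to 11057927 and 13771486 for shNAT10. Loci related to ribosomal RNA took 45.7% and 35.6% of them in shNC and 23.7% and 25.6% in shNAT10, and the 259 lincRNAs took 0.314% to 0.454%, or 0.579% to 0.610% of the fragments outside those loci. The labelled cell type was checked against its markers: of 9 germline genes, *Pou5f1*, *Dazl* and *Dppa3* were listed at 0 in every library, *Ddx4* was at 0 in 3 of 4 libraries, and *Kit* and *Ifitm3* were the only ones above 1 FPKM in every library. *Kit* was lower in shNAT10, *Ifitm3* stood at 9.29 and 22.2 FPKM in shNC and at 27.1 and 33.6 in shNAT10 and was not called, and the 9 germline genes summed to 34.3 and 44.0 against 42.4 and 49.9 FPKM. All 5 pan-leukocyte markers were above 1 FPKM in every library, with a summed level of 344 and 391 FPKM in shNC and 289 and 305 in shNAT10, and 2 of them, *Cd53* and *Laptm5*, were lower in shNAT10. The mast cell markers summed to 246 to 276 FPKM, nearly all of it *Cpa3*, while *Tpsb2* and *Fcer1a* were at 0 and *Ms4a2* was higher in shNAT10. Macrophage markers summed to 48.1 and 52.9 FPKM in shNC and 38.1 and 43.3 in shNAT10, where *Adgre1* was lower and *Lyz2* higher, and fibroblast markers to 44.8 to 60.7 FPKM, with *Col3a1* and *Pdgfra* higher in shNAT10. Of the 5 granulosa cell markers none reached 1 FPKM. The part of these markers' differences in the lincRNA results was not tested, and in bulk RNA fewer cells of a type and less RNA per cell cannot be told apart.

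After *Nat10* knockdown, 26 of the 259 lincRNAs were higher and 28 lower, where a call needs a change of more than 1.2-fold and a limma p, before adjustment, of at most 0.05 on log2(FPKM + 0.1). This is 10.04% and 10.8% of the members, beside a background of 8.41% higher and 7.83% lower among all 20116 genes tested. Among the 12138 tested genes of at least 1 FPKM, the level at which these lincRNAs were chosen, the background was 10.8% higher and 10.8% lower, so the share of lincRNAs called was near it in both directions. Protein-coding genes of that level gave 11.1% higher and 10.6% lower, antisense RNAs of that level 8.36% and 12.2%, and the 619 tested lincRNAs under 1 FPKM 4.85% and 2.75%. The median log2 fold change of the 259 was 0.018, beside 0.0054 over all tested genes, and 135 were above 0 and 124 below. The groups did not overlap for 61 members on the higher side (23.6%) and 63 on the lower side (24.3%), beside 23.9% and 24.1% of all tested genes. The members' median absolute log2 fold change, a difference of means of 2 libraries, was 0.30, and their median absolute log2 difference between the single libraries of a group was 0.25 in shNC and 0.26 in shNAT10.

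An adjusted limma p under 0.05 was reached by 2 of the 259, beside 0.437% of all tested genes. These were *H19*, which rose, and the clone-named *AC164623.1*, which fell. No member reached it with a pseudocount of 1 or 0.01, with no filter on low values, with no trend, with the replicate block or with any library left out, and 18 did with limma-voom on fragments, while both genes kept their call by fold and unadjusted p in all 14 of these and the other alternatives. The adjusted p of the other called members ran up to 0.287. Leaving out any 1 library, which leaves 1 library in a group, lowered the counts in both directions, most without an shNAT10 library. The share of all tested genes that passed is given only for the limma fit on log2(FPKM + 0.1) with all 4 libraries. The counts under the alternatives therefore have no such background beside them. The rule on the mean level lets in members through the group where they are high. The shNC mean was under 1 FPKM for 18 members, of which 4 were called higher, and the shNAT10 mean was under 1 for 15, of which 5 were called lower. Of the 202 members at or above 1 FPKM in every library, 22 were higher (10.9%) and 21 lower (10.4%). This is near the 10.8% in either direction among all tested genes of at least 1 FPKM.

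**Figure D1:**
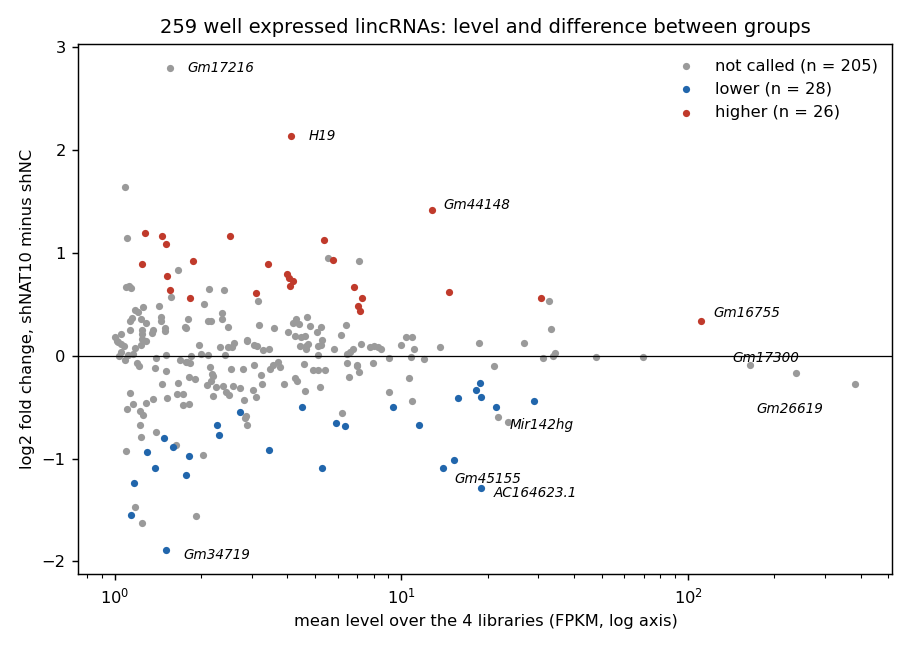
Each point is 1 of the 259 lincRNAs, with its mean FPKM over the 4 libraries on a log axis and its log2 fold change of shNAT10 over shNC; colours mark the 26 called higher and the 28 called lower. Called members lie at all levels. Their share was 17.5% at a mean of 1 to under 2 FPKM and 15.7% at 2 to under 5. It was 23.8% at 5 to under 10 and 39.4% at 10 to under 100 FPKM, and of the 4 members above that 1 was called. The share of all tested genes at these levels is not given. *H19* is the highest of those called higher, and *Gm17216*, at 0 in 1 library, lies above it without being called.

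*H19* is an imprinted lincRNA, expressed from the maternal chromosome and abundant in fetal tissue. It was at 1.52 and 1.40 FPKM in shNC and at 6.77 and 6.81 in shNAT10, from 44 and 41 fragments against 209 and 257. Both shNAT10 libraries were thus far above both shNC libraries, 4.41-fold on the log scale used (log2 fold change 2.14, SE 0.13, limma adjusted p = 0.0443). *H19* lies at chr7:142575529-142578143 on the minus strand, and 9.15% of its exon bases are shared with small annotated RNAs, among them *Mir675*. *Mrpl23*, the nearest protein-coding gene, which encodes a mitochondrial ribosomal protein, had a log2 fold change of -0.10 (SE 0.13).

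*Gm44148* was the next most changed of the members called higher. It was at 5.93 and 8.0 FPKM in shNC and at 18.7 and 18.4 in shNAT10, and its log2 fold change was 1.41 (SE 0.17, limma adjusted p = 0.0672). The groups were well apart, on 215 fragments over the 4 libraries. It has 2 exons at chr6:121255203-121272685, minus strand, and shares 124 of its 316 exon bases with *Usp18*, an interferon-induced protease of the opposite strand. *Usp18* was higher as well, as described with the other opposite-strand pairs.

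Of the 26 members called higher, 12 shared no exon base with any annotated gene. *Gm12603* was at 3.36 and 4.54 FPKM in shNC and 6.80 and 8.40 in shNAT10, which is 0.94 on the log2 scale (SE 0.20). *C130083M11Rik* was at 1.19 and 1.34 against 2.31 and 2.68 FPKM, a log2 fold change of 0.92 (SE 0.18). *Gm43672* was at 5.26 in both shNC libraries and at 8.61 and 8.21 FPKM in shNAT10, which is 0.67 on the log2 scale (SE 0.10). In all 3 the groups did not overlap, as in every called member. With each of the 4 libraries left out in turn, *Gm12603* kept its call in 1 fit, *C130083M11Rik* in 3 and *Gm43672* in 4. The others of this kind were *Gm33370* (1.13), *A430073D23Rik* (1.196), *2210008F06Rik* (1.17), *Gm6634* (1.09), *1700007L15Rik* (0.89), *Gm26880* (0.76), *Gm33280* (0.68), *E430024I08Rik* (0.64) and *D5Ertd605e* (0.56), given as log2 fold changes. *A430073D23Rik* rested on 44 fragments in all, and in *Gm33370* the shNC libraries themselves were apart, at 4.70 and 2.24 FPKM. The other 14 lay across a gene of the opposite strand. Among these were *Gm26936* (1.16), *2700016F22Rik* (0.89), *Gm26916* (0.73), *Gm26856* (0.61) and *E230001N04Rik* (0.56).

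*AC164623.1* was among the 20 most abundant of the 259 and had the lowest p of the members called lower. It was at 26.9 and 27.0 FPKM in shNC and at 10.47 and 11.6 in shNAT10, 2.43-fold lower (log2 fold change -1.28, SE 0.10, limma adjusted p = 0.0443). The libraries of each group lay close together, on 857 and 868 against 356 and 483 fragments. It lies at chr10:79412962-79417905, minus strand, with 2 exons that share no base with another gene. The nearest protein-coding gene, the vomeronasal receptor gene *Vmn2r82*, is 15113 bases away and was too low to be tested.

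*Gm45155* was at 19 and 18.9 FPKM in shNC and at 9.49 and 8.21 in shNAT10, and its log2 fold change was -1.10 (SE 0.11, limma adjusted p = 0.0507). It lies at chr7:118273292-118275363, minus strand, with no shared exon base, 29622 bases from *Smg1*, a kinase of nonsense-mediated decay, whose log2 fold change was 0.01 (SE 0.13). *Gm19585*, 153125 bases from the chromatin organiser gene *Satb1*, was at 2.61 and 2.36 against 1.12 and 0.998 FPKM, a log2 fold change of -1.16 (SE 0.18). *Gm35037* was at 16.3 and 24.8 against 8.50 and 11.6 FPKM, a log2 fold change of -1.01 (SE 0.26). In all 3, as in every member called lower, both shNAT10 libraries were below both shNC libraries, most narrowly in *Gm35037*. *Gm28187* (13.4 and 14.9 against 8.33 and 9.32 FPKM) and *Gm16001* (7.53 and 6.97 against 4.80 and 4.36 FPKM) fell by 0.67 and 0.65 on the log2 scale. *Platr27*, one of the transcripts named for their link to pluripotency, was at 11.4 and 10.6 against 7.35 and 8.19 FPKM and fell by 0.49, a call kept in 11 of 14 alternatives.

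Several other falls of more than 1 on the log2 scale rested on fewer than 100 fragments. *Gm34719* was at 1.56 and 3.31 FPKM in shNC and at 0.834 and 0.342 in shNAT10, on 28 fragments in all, a log2 fold change of -1.89 (SE 0.53). *Gm19951* (-1.55), *Gm20681* (-1.24), *Gm46210* (-1.09) and *Gm12319* (-1.09) had between 29 and 95 fragments each. The remaining members called lower fell by 0.26 to 0.97 on the log2 scale: *Gm26508*, *1700028I16Rik*, *Gm11216*, *Gm28874*, *AC154573.2*, *Gm29595*, *1810058I24Rik*, *Gm28592*, *2900076A07Rik*, *Gm2453*, *Gm26841*, *Gm6093*, *AC101945.2*, *Gm39214*, *Epb41l4aos* and *5430416N02Rik*. Of the 27 annotated members called lower, 19 shared no exon base with an annotated gene.

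**Figure D2:**
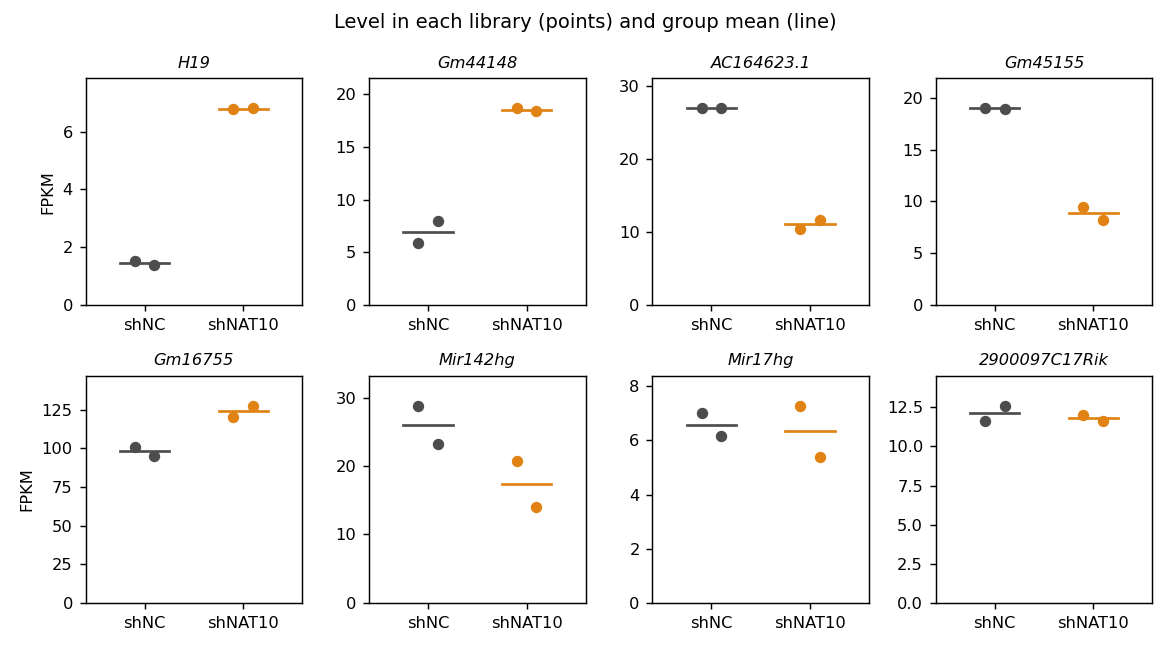
FPKM of 8 lincRNAs in each library (points) and the mean of each group (lines), shNC at left and shNAT10 at right, with each axis starting at 0. *H19*, *Gm44148* and *Gm16755* lie higher in both shNAT10 libraries, *AC164623.1* and *Gm45155* lower, and *Mir17hg* and *2900097C17Rik* overlap between the groups.

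**Figure D3:**
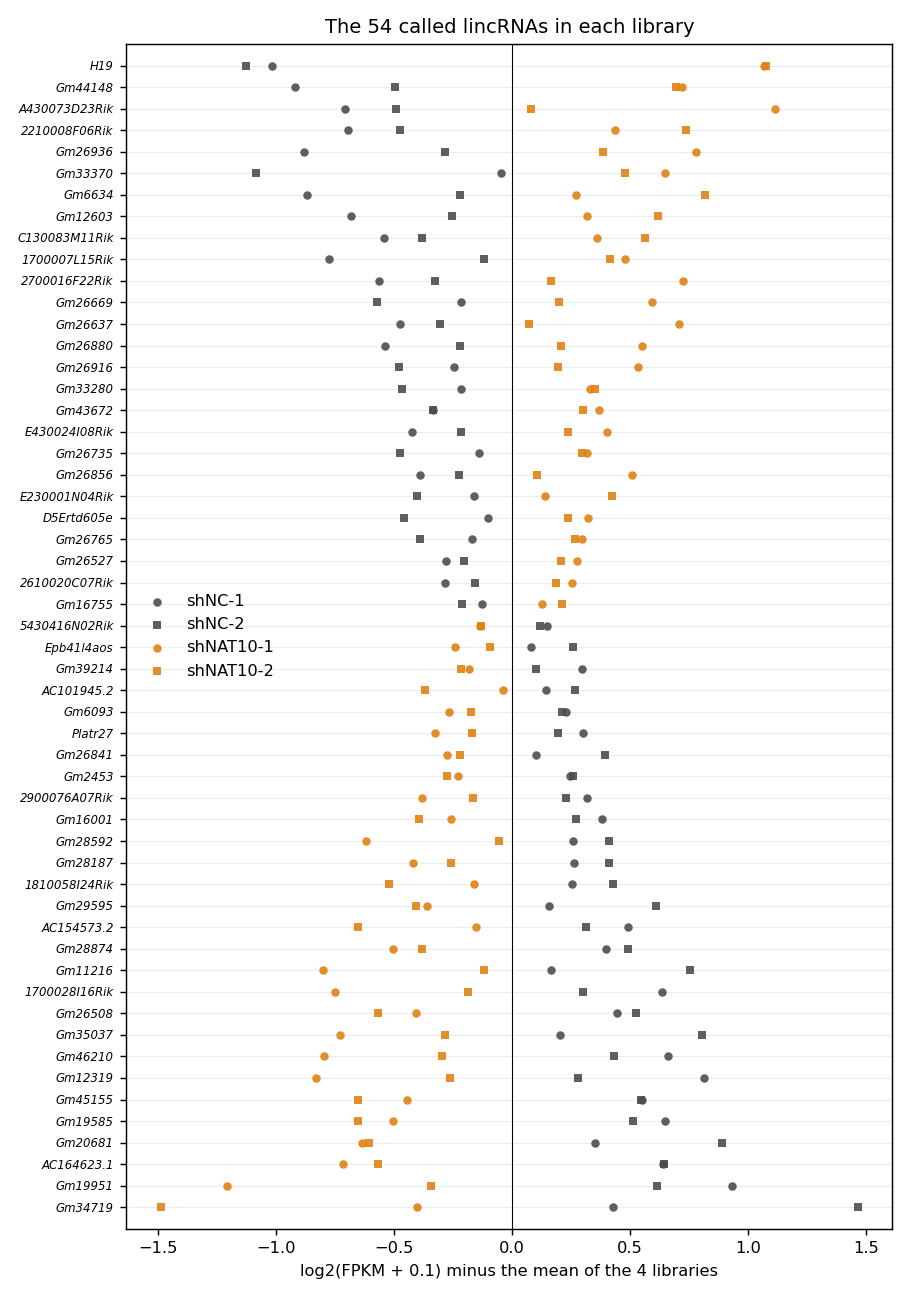
The 54 called lincRNAs, ordered by log2 fold change, with log2(FPKM + 0.1) of each library minus the mean of the 4 libraries; circles are replicate 1, squares replicate 2, grey shNC and orange shNAT10. The grey and orange points separate in every row, which the threshold for a call favours, and the libraries of a group lie widest apart in *Gm34719*, *Gm33370* and *A430073D23Rik*.

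The 10 most abundant members held 48.7% to 51.4% of the summed FPKM of the 259, and the exons of all 10 lay across a gene of the opposite strand. *Gm26619* was the most abundant, at 392 and 448 FPKM in shNC and 353 and 342 in shNAT10, and 50.4% of its exon bases are shared with *Gm10260*, annotated as protein-coding, which stood at 653 and 749 against 585 and 561. Their log2 fold changes were -0.27 and -0.29, and neither was called. *Gm26619* passed the threshold for a call with limma-voom, with quantile normalization and without shNC replicate 1. *Gm17300*, at 218 to 285 FPKM, lies across *Snhg3* and its small nucleolar RNAs *Snora73a* and *Snora73b*, and *Gm26825*, at 151 to 188 FPKM, across a processed pseudogene over 91.8% of its exon bases. *Gm28872*, at 18.3 to 39.3 FPKM, lies across *Rnu11*, the U11 small nuclear RNA of the minor spliceosome. *Gm17300* passed the threshold with quantile normalization and without shNC replicate 1, and *Gm28872* without shNC replicate 2.

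Of the 10, only *Gm16755* was called in the limma fit on FPKM, a call kept in 12 of 14 alternatives. It was at 101 and 95.3 FPKM in shNC and 120 and 128 in shNAT10. It was 1.26-fold higher (log2 fold change 0.34, SE 0.08), and its opposite-strand gene *Mrpl12*, a mitochondrial ribosomal protein gene, was at 101 and 102 against 117 and 124 FPKM (0.25, SE 0.08). *Gm17275*, *Gm26718*, *Gm26582* and *Gm26722* lie across *H3f3a*, *Pgam5*, *G3bp2* and *Rbbp4* and had log2 fold changes between -0.02 and 0.02. *Gm26694*, across *Metrn*, had a log2 fold change of 0.26 (SE 0.09) and *Metrn* one of 0.33 (SE 0.08). With quantile normalization, with equal totals and without shNAT10 replicate 1, *Gm26694* passed the threshold for a call.

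Exon bases were shared with a gene of the opposite strand by 138 of the 256 members found in the GENCODE M21 annotation, with a protein-coding gene by 96 of them, and with a gene of the same strand by 13. No source used here states whether fragments were assigned to genes by strand. For such members the deposited FPKM can hold fragments of the other gene, and the value of the lincRNA is uncertain. Across the 94 of the 96 whose coding gene was tested, the log2 fold changes of lincRNA and coding gene had Pearson's r = 0.68 and Spearman's rho = 0.59, and the mean levels of 95 pairs had r = 0.59 on the log2 scale. For the log2 fold changes r was 0.64 over the 33 pairs with at least 50% of the lincRNA's exon bases shared and 0.71 over the 61 pairs with less. All points come from the same 4 libraries. Without the pairs *Gm44148* and *Usp18*, and *Gm26637* and *Eif2ak2*, whose coding genes had the largest absolute log2 fold changes, r was 0.58. In 64 of 94 pairs (68.1%) the log2 fold changes, called or not, had the same sign.

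Of the 15 called members with a tested opposite coding gene, 9 had a coding gene called in the same direction and 0 one called in the other, beside 11.1% higher and 10.6% lower among all protein-coding genes of at least 1 FPKM. *Usp18* was at 4.67 and 8.88 FPKM in shNC and at 14.5 and 15.7 in shNAT10 (log2 fold change 1.22, SE 0.32), beside 1.41 for *Gm44148*. *Eif2ak2*, the interferon-induced kinase PKR, was at 5.31 and 4.84 against 10.4 and 9.96 FPKM (0.99, SE 0.11), beside 0.78 (SE 0.28) for *Gm26637*, which shares 7.60% of its exon bases with it. Both coding genes belong to the interferon response, and both lincRNAs were called higher with them. *Gm44148* kept its call in all 14 alternatives and *Gm26637* in 7 of 14. *Sox4*, a transcription factor gene, was at 12.9 and 9.59 against 18.1 and 17 FPKM, and *Gm26735*, which shares 98.8% of its exon bases with it, was at 13.0 and 10.3 against 17.9 and 17.6 FPKM. The values of this pair were close in every library. *Gm26765* (0.56) rose beside *Tmpo* (0.61), a gene of the nuclear lamina, *Gm26669* (0.79) beside *Zfp36l1* (0.63), an mRNA decay factor, *Gm26527* (0.48) beside *Arsb* (0.39), a lysosomal sulfatase, and *2610020C07Rik* (0.44) beside *Gspt1* (0.44), a translation termination factor. *Gm26841* (-0.50) fell beside *H13* (-0.48), a signal peptide peptidase. For 6 called members the coding gene was not called. These were *Gm2453* (-0.50) with *Uck2* (0.13), of the other sign, *Gm28592* (-0.67) with *Phlda1* (-0.21), *2700016F22Rik* (0.89) with *Emc1* (0.07), *Gm26856* (0.61) with *Prmt3* (0.11), *Gm39214* (-0.40) with *Itfg1* (-0.22), and *Gm16755* with *Mrpl12*. *Gm28592* shares 98.1% of its exon bases with *Phlda1*, and *2700016F22Rik* 54.3% with *Emc1*.

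The 115 members with no shared exon base were set beside their nearest protein-coding gene. Over the 96 whose neighbour was tested, r was 0.28 and rho 0.25, and 50 (52.1%) had the direction of the neighbour. For the 24 of them that start within 1000 bases of a coding gene that runs the other way, r was 0.09. Of the 25 called members in this set, 5 had a neighbour called in the same direction and 0 in the other, beside the same 11.1% and 10.6% of coding genes. *Gm12603* (0.94) and *Mtap* (0.91, SE 0.18), an enzyme of methionine salvage, were higher at a distance of 52508 bases, and *Gm11216* (-0.92) and *Tnc* (-1.54, SE 0.35), an extracellular matrix gene, were lower at 28518 bases. *Gm12319* (-1.09) lies 97 bases from *Pfn1* (-0.35, SE 0.08), the gene of the actin-binding protein profilin. The other pairs of this kind were *AC101945.2* with *Lrp12* and *A430073D23Rik* with *4930522L14Rik*. Among the 115, 12 were called higher (10.4%) and 19 lower (16.5%), and among the 138 across an opposite-strand gene 14 (10.1%) and 8 (5.80%), beside 10.8% in either direction among all tested genes of at least 1 FPKM. This difference between the sets was not tested.

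**Figure D4:**
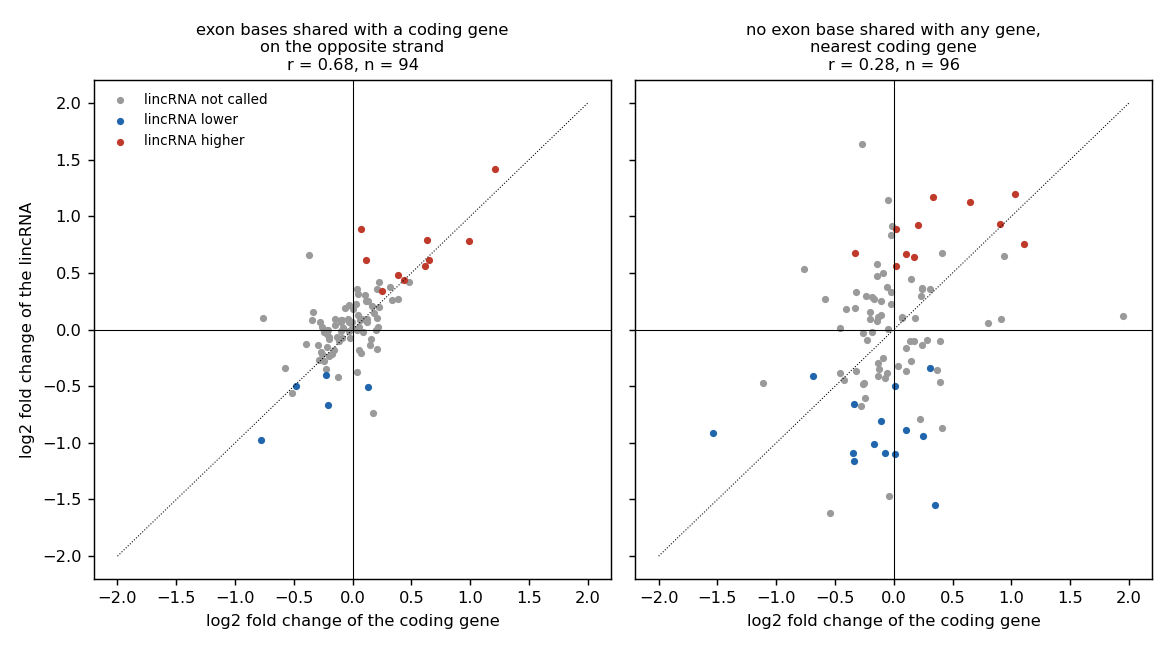
Log2 fold change of the lincRNA against that of the protein-coding gene, for 94 members that share exon bases with a coding gene of the opposite strand (left) and 96 members with no shared exon base and their nearest coding gene (right); colours mark the call of the lincRNA and the dotted line marks equal change. The points follow the dotted line at left (r = 0.68) and scatter around it at right (r = 0.28).

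A list of 55 lincRNAs with a known role or a small RNA product was compared with the members, and 9 of the 55 were among them. Apart from *H19*, *Epb41l4aos* alone passed the threshold: it lies beside *Epb41l4a*, contains a small nucleolar RNA, and was at 19 and 21.5 against 15.2 and 16.8 FPKM (log2 fold change -0.34, SE 0.11). It lost the call with limma-voom, with no trend and with any 1 library left out. *Mir142hg* was at 28.8 and 23.2 FPKM in shNC and 20.7 and 14.1 in shNAT10 (log2 fold change -0.59, SE 0.23, limma adjusted p = 0.303), just outside the threshold for a call. It passed that threshold with limma-voom on fragments, with a filter at 1 FPKM and with the replicate block. Its groups did not overlap, and they lay closer to each other than those of *AC164623.1*. *2900097C17Rik* (Norad), a lincRNA that binds Pumilio proteins, was at 11.6 and 12.6 against 12.0 and 11.6 FPKM, on 3025 fragments, with a log2 fold change of -0.03 (SE 0.10). *Mir17hg* was at 7.01 and 6.15 against 7.28 and 5.39 FPKM (-0.07, SE 0.18). The groups overlapped for both.

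*Gm14005* (Morrbid), known from short-lived myeloid cells, was at 1.74 and 1.88 against 1.66 and 1.81 FPKM. *Ptgs2os2*, beside the cyclooxygenase gene *Ptgs2*, was at 2.49 and 3.19 against 4.02 and 3.03 FPKM, *Pvt1*, beside *Myc*, at 0.998 and 1.46 against 1.28 and 1.42, and *Bvht* (Braveheart), known from the heart lineage, at 1.83 and 1.33 against 1.71 and 2.15. The groups overlapped for all 4. Among the remaining microRNA hosts, *2900076A07Rik*, which contains *Mir1839*, was called lower, at 3.37 and 3.17 against 2.04 and 2.39 FPKM (-0.55, SE 0.16). It kept this call in 11 of 14 alternatives, and in 1 of the 4 with a library left out. *6720427I07Rik*, the let-7 host, was at 10.3 and 9.998 against 11.4 and 11.7 FPKM (0.19, SE 0.09), and *4833445I07Rik*, which contains *Mir191* and *Mir425*, at 1.97 and 2.51 against 2.57 and 2.90 (0.28, SE 0.19). *Gm10505*, which contains *Mir7216*, was at 1.29 and 1.22 against 1.96 and 1.32 FPKM (0.33, SE 0.25). None of these 3 was called, although their groups did not overlap.

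The study describes ac4C in repeats of a C followed by 2 bases of any kind. Runs of 4 such triplets, at every start position of the sense strand, were counted in the longest GENCODE M21 transcript of each lincRNA. The 256 members had a median of 5.31 runs per kilobase, against 4.09 in the 5028 other lincRNAs with a sequence and 4.60 in the 1450 of these above 0 in a library. Members called higher had a median of 5.495, members called lower 6.47 and the others 5.26, with quartiles of 2.92 and 7.69, 1.93 and 9.91, and 2.42 and 8.38, so the 3 sets overlapped widely. Across members the number of runs per kilobase and the log2 fold change had r = -0.07 and rho = -0.11, GC content and the log2 fold change r = -0.15 and rho = -0.20, and the number of runs and the percentage of C r = 0.67. Median GC content was 45.0% in members called higher, 48.7% in those called lower and 47.2% in the others. Members had a median exon length of 1637 bases, 1540 in those called higher, 1063 in those called lower and 1694 in the others, and 28 of the 256 (10.9%) had a single exon.

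The longest run of such triplets is shown for the 4 most clearly changed members, as sense strand sequence from GENCODE M21 (GRCm38) with the run in capitals and 4 bases on either side. *H19* had 25 runs of 4 triplets in 2286 bases (10.9 per kilobase), *Gm44148* 4 in 316 bases (12.7), *AC164623.1* 8 in 2709 bases (2.95) and *Gm45155* 1 in 596 bases (1.68). Overlapping runs were counted separately, so the 4 of *Gm44148* all lie in the 1 stretch of 7 triplets shown for it.
*H19*, chr7:142577358-142577386, 7 triplets: gggtCCCCAGCCGCCACAACATCCCaccc
*Gm44148*, chr6:121255318-121255346, 7 triplets: tgtcCTGCATCTTCTCCAGCAGCAAaagc
*AC164623.1*, chr10:79417840-79417862, 5 triplets: aataCATCTCCAACCGCTCttgt
*Gm45155*, chr7:118273534-118273553, 4 triplets: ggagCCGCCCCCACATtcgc
The 2 that rose had more such runs per kilobase than the 2 that fell. Over all called members the order was the other way, with medians of 5.495 in those higher and 6.47 in those lower. The 4 members shown were chosen for their difference. The data hold no measure of ac4C, so a run is a match of letters and not a modified site.

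Fragment numbers differed widely among members. The median member had 234.5 fragments over the 4 libraries (range 22 to 21025), and 65 of the 256 had fewer than 100. Of those 65, 13 (20%) were called, and of the 191 with more, 40 (20.9%), both near the 10.8% higher and 10.8% lower of all tested genes of at least 1 FPKM. *Gm17216* had the largest log2 fold change of all, 2.80 (SE 1.27), and was not called: 1 of its shNC libraries was at 0 and the other at 1.27 FPKM, against 2.74 and 2.24 in shNAT10. Just inside the level that defines a member were *Gm4349* (mean 1.00 FPKM), *1810019N24Rik* (1.02) and *6430573P05Rik* (1.02), and just outside were *Gm46224* (0.991), *Gm28982* (0.987) and *Gm32950* (0.983).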

How the data were processed

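The authors aligned reads with HISAT2 and tested with DESeq2, per the methods and labels (build mm10), and deposited FPKM per gene for each library. The counting program, its strand setting and the annotation are not given in the sources used here. A second deposited table repeats FPKM and gives the authors' own fold changes and p-values, and was not used. Median-ratio factors of the 4 deposited columns were equal, so the columns had been scaled to each other.

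Libraries were grouped by their titles. For the 20116 genes with a mean of at least 0.1 FPKM, log2(FPKM + 0.1) was compared with limma 3.58.1 (lmFit and eBayes with trend, two-sided, R 4.3.3) and Benjamini-Hochberg adjustment over all tested genes. All fold changes use this scale, on which changes of low genes come out too small. Fragments were recovered from FPKM and GENCODE M21 exon lengths, and 96.0% to 96.5% of values under 50 were within 0.02 of a whole number. For 3 members absent from M21 no length, position or fragment number is given. Tables were made with Python 3.11.15, numpy 2.4.6, pandas 2.3.3, scipy 1.17.1 and matplotlib 3.10.9. The test was checked on simulated data.

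Members, lists, tests and the naming rule were chosen with earlier results of these data known. Named were all called members, the 10 most abundant, those on a list of known lincRNAs, and the 3 on either side of the level. *Gm17216*, opposite-strand and neighbouring coding genes, microRNA hosts and the 4 members with sequence windows were picked with their values in view. Alternatives were other pseudocounts, filters, scalings, variance models, a replicate block, libraries left out, limma-voom on fragments and other member definitions. The values of 1 opposite-strand pair are not reported here.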

Additional observations from a re-analysis of the deposited data

How the results depend on the processing

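Under pseudocounts of 1 and 0.01, no filter, a filter at 1 FPKM, median-ratio, quantile and equal-total scaling, no trend and limma-voom, 20 to 28 members were higher and 22 to 31 lower. The median log2 fold change of the members was 0.0094 to 0.058, the last with equal totals, where that of *Nat10* was -1.05. Median-ratio scaling changed nothing, since the FPKM were already scaled so. An adjusted p under 0.05 was reached by 0 to 4 members in the FPKM fits and by 18 in limma-voom. Of the 54 called members, 33 kept the call in every alternative run for them that used all 4 libraries (*Gm29595* has no limma-voom fit), 12 in every alternative, and 0 changed direction.

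With each library left out, 9 to 24 members were higher and 14 to 23 lower, and the median was -0.044 to 0.011. The fits without shNC replicate 2 (17 lower), without shNAT10 replicate 1 (11 and 14) and without shNAT10 replicate 2 (9 and 14) moved the counts by over 1.5 times, and the fit without shNC replicate 1 moved the median (-0.044), with the lone library assumed to vary like the other group. The log2 fold change of *Nat10* was -1.35 to -0.83, and it was no longer past the threshold without shNAT10 replicate 1 (-1.07) or without shNAT10 replicate 2 (-1.11).

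Restricting the members to those with no shared exon base left 12 higher and 19 lower of 115, a smaller set by construction. Levels of 0.5 and 2 FPKM gave 36 and 34 of 405 (8.89% and 8.40%), and 18 and 19 of 162 (11.1% and 11.7%).

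With the replicate number as a block, 27 were higher and 32 lower, and *Mir142hg* passed the threshold. Same-numbered libraries did not deviate together (r = 0.034 over members), so they were not taken as paired.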
